A study of Mus musculus with 3 samples.

Results

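Mmp12 Lpl Gpnmb macrophages of healing mouse skin wounds are described here as the barcodes with the highest joint level of 6 genes. The genes are Mmp12, Lpl, Mmp13, Ctsk, Gpnmb and Atp6v0d2. Barcodes with at least 200 detected genes, under 10% of unique molecular identifiers (UMIs, counted mRNA molecules) from mitochondrially encoded genes and at least 2000 UMIs were pooled, and the mean of the natural log of 1 plus the UMIs per 10000 over the 6 genes was taken as a score. The top 4% by score, 108 of 2702 barcodes, are called members below. The other 2594 barcodes are the comparison. Because these 6 genes chose the members, and because genes that move with them in the same cells are not independent of that choice, every difference between members and other barcodes is given as a description and none was tested.

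The cells are wound monocytes and macrophages, taken from the skin of wild-type male animals of the inbred strain C57BL6/J and profiled by droplet single-cell RNA-seq. Wounds were sampled on day 3, day 6 and day 10. Every time point is 1 library made from 2 pooled mice whose cells cannot be separated. Day and library therefore cannot be told apart, no spread between mice is known, and no p-value is given for any comparison. How the cells were gated during isolation is not known from the labels, which list no unwounded skin. CPM below is the number of UMIs of a gene per 1000000 UMIs summed over a group of barcodes, and intervals are exact 95% intervals that cover counting error only.

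Macrophages that clear dead cells and lipid-rich debris take up fatty acids and lipoproteins, store lipid in droplets and expand their lysosomes. Lpl encodes lipoprotein lipase, which frees fatty acids from triglycerides. Mmp12 (macrophage elastase) and Mmp13 (a collagenase) are secreted metalloproteinases that cut matrix proteins. Ctsk (cathepsin K) is a collagen-degrading lysosomal protease best known from osteoclasts, Gpnmb is a transmembrane glycoprotein of lysosomes and melanosomes, and Atp6v0d2 is a subunit of the V-ATPase, the proton pump that acidifies lysosomes. In mice a programme of Gpnmb, Spp1, Cd9, Trem2, Fabp5 and Lpl is known from fat, liver and plaques as that of lipid-associated macrophages. Lipid content was not measured in these files, so the word lipid-laden in the working name is not checked by any value here.

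The start regions of the score genes are shown because the members are defined by the joint expression of these genes. RefSeq windows of 250 bases before to 50 bases after each start were given for 4 of the 6 score genes on GRCm38.p6, and none for Lpl or Atp6v0d2. Searched on both strands were the AP-1 letters TGANTCA, the PU.1 letters GAGGAAGT, the E-box CACGTG bound by the MiT family of lysosomal regulators, the longer CLEAR element that contains it, and the PPAR DR1 element. Of 32851 RefSeq windows of the mouse genome, 7.81% held the AP-1 letters, 3.20% the PU.1 letters, 7.15% the E-box, 0.326% the CLEAR element and 0.0396% the DR1 element. The 4 windows with a match follow, on the plus strand and 5′ to 3′, with the match in capitals.
Mmp12 first start: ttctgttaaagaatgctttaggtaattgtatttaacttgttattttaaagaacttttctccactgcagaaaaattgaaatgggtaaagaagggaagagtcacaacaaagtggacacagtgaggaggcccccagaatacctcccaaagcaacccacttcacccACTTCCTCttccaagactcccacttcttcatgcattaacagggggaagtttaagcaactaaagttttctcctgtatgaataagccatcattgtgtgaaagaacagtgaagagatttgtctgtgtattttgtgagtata
Mmp12 second start: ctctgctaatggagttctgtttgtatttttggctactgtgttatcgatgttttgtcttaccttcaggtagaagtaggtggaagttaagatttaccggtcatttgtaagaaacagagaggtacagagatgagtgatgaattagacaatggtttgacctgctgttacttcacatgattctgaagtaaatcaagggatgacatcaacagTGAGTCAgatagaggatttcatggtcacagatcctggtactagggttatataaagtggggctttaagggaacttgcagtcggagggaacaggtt
Mmp13: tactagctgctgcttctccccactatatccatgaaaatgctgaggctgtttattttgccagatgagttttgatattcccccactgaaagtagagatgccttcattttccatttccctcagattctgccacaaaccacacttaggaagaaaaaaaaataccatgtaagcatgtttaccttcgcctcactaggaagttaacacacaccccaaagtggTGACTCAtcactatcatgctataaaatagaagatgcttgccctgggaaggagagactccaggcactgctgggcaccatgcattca
Gpnmb: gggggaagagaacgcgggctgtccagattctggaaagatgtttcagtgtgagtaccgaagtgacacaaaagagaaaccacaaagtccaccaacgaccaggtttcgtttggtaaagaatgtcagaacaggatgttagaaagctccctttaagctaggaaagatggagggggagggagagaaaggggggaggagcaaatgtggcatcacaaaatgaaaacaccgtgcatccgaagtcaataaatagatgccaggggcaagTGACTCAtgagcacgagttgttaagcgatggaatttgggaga
The first Mmp12 window is chr9:7344147-7344446 and holds the reverse complement of the PU.1 letters at -88 from the start. The second Mmp12 window, chr9:7347124-7347423, holds the AP-1 letters at -44, and the Mmp13 window, chr9:7272264-7272563, holds them at -35. In the Gpnmb window, chr6:49036268-49036567, they begin 8 bases after the start. The Ctsk window, chr3:95498960-95499259, held none of the 5 motifs, and the E-box was found in none of these windows. A match in letters is a description of the sequence and not evidence of a bound factor.

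The 3 libraries held 11199361, 9273960 and 13972817 UMIs on day 3, day 6 and day 10, and 879, 551 and 1272 of their barcodes were kept. Members had a median of 13699, 11416.5 and 9233 UMIs on these days, against 10764, 12638 and 8719 in other barcodes. Their median share of mitochondrial UMIs was 3.86%, 4.18% and 3.03%, against 3.81%, 3.58% and 3.11%. The day 6 and day 10 libraries shared 2 barcode sequences, none of them of a member. Summed over members the UMIs were 84163 on day 3, 742467 on day 6 and 557263 on day 10. With 7 members, day 3 gives values only, and genes were compared in the day 6 and day 10 libraries.

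Members were a small part of the day 3 library and a larger part of both later ones. They were 7 of 879 barcodes on day 3 (0.796%, Clopper-Pearson interval 0.321 to 1.63%), 52 of 551 on day 6 (9.44%, 7.13 to 12.2%) and 49 of 1272 on day 10 (3.85%, 2.86 to 5.06%). The share on day 10 was 4.84 times that on day 3 (interval 2.18 to 12.7) and 0.408 times that on day 6 (0.271 to 0.615). The day 6 share was 11.9 times the day 3 share (5.36 to 30.9). With Mmp12 and Mmp13 left out of the score the day 10 share was 0.245 times the day 6 share. Choosing 4% within each library would make the shares equal by construction. A share of barcodes can also differ through the isolation, so that fewer such cells in the wound and fewer of them recovered cannot be told apart.

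The score had no gap at the limit. The 3 lowest members scored 1.231, 1.225 and 1.224, and the 3 highest barcodes outside scored 1.217, 1.197 and 1.196. Within 0.1 of the limit lay 23 members and 16 other barcodes. Members ranged up to 3.89 with a median of 1.64, and the highest score was that of a day 3 member. A UMI of 2 of the 6 genes was found in 4 members, of 3 genes in 33, of 4 genes in 32, of 5 genes in 29 and of all 6 in 10. Among other barcodes 1543 had a UMI of none of the genes and 698 of exactly 1 of them, and none had all 6.

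Mmp12 (chr9:7344381-7369499 on GRCm38, which mm10 names) was the most abundant score gene. It had 9351, 7758 and 9932 CPM in members on day 3, day 6 and day 10, against 4.77, 209.8 and 335.5 CPM in other barcodes. Members differed widely among themselves, with a median of 48.1 and a highest value of 546 UMIs per 10000 on day 6, and 63.4 and 446 on day 10. A UMI of Mmp12 was seen in 94.2% of day 6 members and 98.0% of day 10 members. After each barcode was thinned to 2000 UMIs these shares were 90.4% and 93.9%. Other barcodes with at least 3 dendritic cell markers should lack the gene. They were limited to under 5 UMIs of C1qa, C1qb and C1qc together per 10000, and members were left out by definition. Their thinned share was 1.02% on day 6 and 3.39% on day 10, at median depths of 18257 and 14613 UMIs.

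Lpl (chr8:68880491-68907448) stood high in members of day 3 and day 6 and lower in those of day 10. It had 4658, 5580.05 and 1410.5 CPM in members, against 119.1, 365.2 and 123.5 CPM in other barcodes. All 7 day 3 members had a UMI of it, with a lowest value of 17.8 UMIs per 10000. The share of members with a UMI was 96.2% on day 6 and 55.1% on day 10, and 84.6% and 42.9% after thinning, so the day 10 members include many barcodes without detected Lpl. Dendritic-marker barcodes gave thinned shares for Lpl of 3.06% and 1.69% on these days.

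Gpnmb (chr6:49036546-49070929) followed the same order, with 808, 1981 and 579.6 CPM in members and 7.77, 125.9 and 48.9 CPM in other barcodes. Ctsk (chr3:95499256-95509362) was highest on day 10, with 736.7, 649.2 and 981.6 CPM in members and 3.8, 24 and 75.5 CPM elsewhere. Mmp13 (chr9:7272514-7283331) had 677, 385 and 305 CPM in members and 2.0, 20.3 and 15 CPM in other barcodes. It was seen in only 38.5% of day 6 and 34.7% of day 10 members, and 1 barcode gave 36.7% of its day 6 UMIs. Atp6v0d2 (chr4:19876841-19922605) was the least abundant, with 118.8, 265.3 and 183.0 CPM in members and 1.6, 7.4 and 8.5 CPM in other barcodes.

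**Figure D1:**
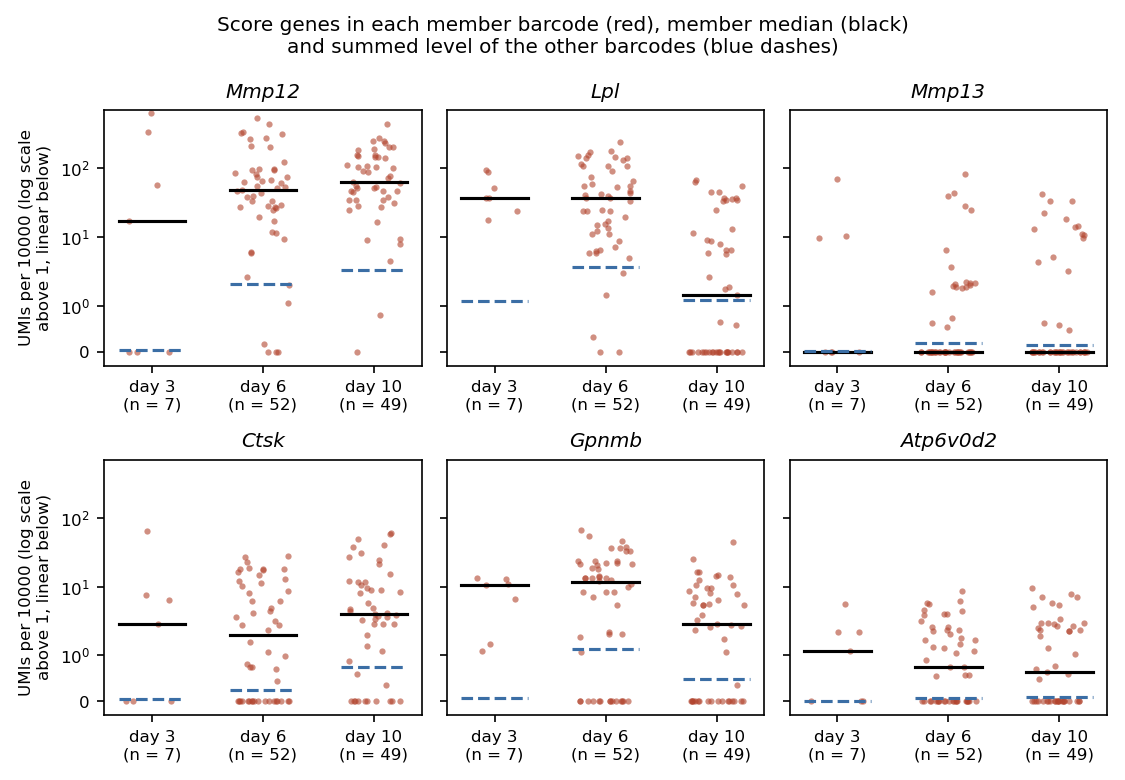
UMIs per 10000 of each score gene (vertical axis, logarithmic above 1 and linear below) in each member barcode of the day 3, day 6 and day 10 libraries, with the member median as a black line and the summed level of the other barcodes as blue dashes. Nearly all members of day 6 and day 10 carried Mmp12, while the Lpl median was 37.2 on day 6 and 1.42 on day 10 and the Mmp13 median was 0 on every day.

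The members were not uniform in which score gene dominated. Mmp12 was the highest of the 6 genes in 28 of 52 members on day 6 and in 41 of 49 on day 10, and Lpl in 17 of 52 and 2 of 49. Across members, Gpnmb and Atp6v0d2 ranked alike, with Spearman's rho of 0.55 over 52 members on day 6 and 0.42 over 49 on day 10. Mmp13 and Gpnmb ran in opposite order on day 10, with a rho of -0.39, but not on day 6, with 0.07. These barcodes share a library and a sum over the same genes chose them, so these rho values carry no p. Each gene was also summed over the 108 barcodes that the other 5 genes place on top. Its level was then 24.2 times that of the remaining barcodes for Mmp12, 12.3 times for Lpl, 20.9 for Mmp13, 10.1 for Ctsk, 18.2 for Gpnmb and 18.5 for Atp6v0d2, over all 3 libraries. These pooled ratios also hold differences between the libraries, and within day 6 and day 10 each was smaller. There they were 17.1 and 18.4 for Mmp12, 9.37 and 6.25 for Lpl, and 17.0 and 7.98 for Mmp13. For Ctsk they were 9.70 and 7.41, for Gpnmb 11.1 and 8.72, and for Atp6v0d2 11.3 and 13.8. Compared with the 108 members as chosen, 78 to 99 barcodes were kept when 1 gene was left out.

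The label was checked against marker lists of macrophages and of other cells. Lyz2, which encodes lysozyme, had 10399 and 15070.1 CPM in members of day 6 and day 10, against 5731 and 9994 CPM in other barcodes (1 barcode gave 26.6% of the day 10 UMIs). Cd68, a lysosomal membrane protein of macrophages, had 858 and 682 CPM, against 396 and 353 CPM. Summed over 12 macrophage markers, members had 17918, 20183 and 21704 CPM on the 3 days and other barcodes 18440.1, 13363 and 17605 CPM. In day 10 members Lyz2 gave 15070.1 of the 21704 CPM. Of the 11 macrophage markers compared none was at least 2-fold higher in members on both days and Mrc1 was lower, with list medians of -0.20 and -1.09. On day 10 the ratio of members to other barcodes was 0.469 for Adgre1 (F4/80), 0.171 for Aif1, 0.278 for C1qa and 0.386 for C1qc. All 5 melanocyte markers, Pmel and Tyr among them, were at 0 in members of every library. The 11 osteoclast markers, which include the score genes Ctsk and Atp6v0d2, summed to 1473, 1452 and 1574 CPM in members and 59.6, 190.4 and 239 CPM in other barcodes. Ctsk gave 737, 649 and 982 CPM and Atp6v0d2 119, 265 and 183 CPM of the member sums. Most of each member sum thus comes from 2 genes that chose the members, and nothing is read from it. Acp5, the tartrate-resistant acid phosphatase, was 4.65-fold and 2.87-fold higher in members on day 6 and day 10, while Calcr, Oscar and Car2 were at 0 in members of every library. The adipocyte markers Plin1 and Cidec were at 0. On day 10 the adipocyte list summed to 28.7 CPM, and single barcodes gave 81.8% of the Cfd UMIs and all of those of Car3 and Adipoq. The Langerhans cell gene Cd207 had 13 UMIs in day 10 members, 92.3% of them in 1 barcode. T cell markers were at 0, fibroblast markers summed to 0, 8.08 and 10.8 CPM and keratinocyte markers to 0, 4.04 and 0 CPM. Neutrophil markers were not absent, and summed to 83.2, 155 and 188 CPM in members and 125, 206 and 114 CPM in other barcodes.

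Spp1, F7, Rnf128, Cd36 and Sdc1 were among the genes highest in members relative to other barcodes beyond the 6 score genes. Of 2758 genes compared in both libraries, 101 (3.66%) were at least 2-fold higher in members than in other barcodes on day 6 and on day 10, and 142 (5.15%) were at least 2-fold lower on both days. Taken alone, day 6 had 242 of 3185 compared genes higher (7.6%) and 304 lower (9.54%), and day 10 had 165 of 2926 higher (5.64%) and 278 lower (9.5%). The median log2 ratio over all compared genes was 0.01 on day 6 and -0.14 on day 10. Since the members were chosen by expression in the same barcodes, nothing is read from these shares.

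Spp1 (chr5:104435118-104441050) encodes osteopontin, a secreted glycoprotein that binds integrins and Cd44. It had 17656, 12969 and 22237 CPM in members on day 3, day 6 and day 10, against 1060, 1462 and 1676 CPM in other barcodes. The ratio was 8.87 on day 6 (interval 8.62 to 9.13) and 13.3 on day 10 (13 to 13.6), so all 3 member sums lie far above those of the other barcodes. The level still varied between members, with 35.5 UMIs per 10000 at the median and 744.8 at the highest on day 6, and 44.2 and 1853 on day 10. A UMI of Spp1 was detected in 86.5% of day 6 members and 83.7% of day 10 members.

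Of 14 compared genes of lipid uptake and cholesterol export 3 were at least 2-fold higher in members on both days (Cd36, Olr1 and Fabp5) and none was lower, with list medians of 0.88 and 0.47. Summed over all 26 listed genes members had 15385 CPM on day 6 and 11320 CPM on day 10, against 10274 and 12563 CPM in other barcodes, so the sum was lower in members on day 10. The ratio of Olr1 was 0.478 with the top 2% as members. Cd36, a scavenger receptor that takes up fatty acids and oxidised lipoproteins, had 606, 1659 and 639 CPM in members and 50.3, 224 and 125 CPM in other barcodes, a ratio of 7.41 on day 6 (6.86 to 8.0) and 5.11 on day 10 (4.54 to 5.74). Fabp5, a cytosolic carrier of fatty acids, had 2234, 3703 and 1710.1 CPM in members and 258, 466 and 579 CPM in other barcodes, a ratio of 7.94 on day 6 and 2.95 on day 10. Plin2, the coat protein of lipid droplets, had 1402, 1904 and 1148 CPM in members and 378, 629 and 535 CPM elsewhere, and was detected in all 52 members of day 6. The nearer to 1 of its ratios on day 6 and day 10 was 2.15, and 1.86 under one alternative. Fabp4, a second fatty acid carrier, was 5.57-fold higher in members on day 6 but only 1.34-fold on day 10, and single barcodes held 28.3% and 27.9% of its UMIs.

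The tetraspanin Cd9 had 2507, 1235 and 1425 CPM in members and 186, 319 and 341 CPM in other barcodes, with ratios of 3.87 and 4.18 on day 6 and day 10. The heparan sulfate proteoglycan Sdc1 had ratios of 4.80 and 5.33, with 30.6% of its day 6 UMIs from 1 barcode. Jag1, a Notch ligand, had ratios of 3.44 and 3.20, although the nearer of them to 1 was 1.93 with the top 2% as members and 1.81 with Mmp12 and Mmp13 left out of the score. F7, coagulation factor VII, had 290 and 187 CPM in members and 37.5 and 29.4 CPM elsewhere, and the ubiquitin ligase Rnf128 430 and 178 CPM and 43.8 and 28.8 CPM. Igf1, a growth factor for keratinocytes and muscle, had 259 and 104 CPM in members and 46.8 and 22 CPM in other barcodes, and 1 barcode gave 34.5% of the day 10 UMIs.

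Inside the cell, Prdx1, a peroxiredoxin that reduces peroxides, had 8020.2, 3453 and 5920.01 CPM in members and 516, 737 and 866 CPM in other barcodes. Alas1, the first enzyme of heme synthesis, had ratios of 4.77 and 7.18, with 31.7% of its day 10 UMIs from 1 barcode. Rhoc, a small GTPase of the actin cytoskeleton, had ratios of 5.90 and 3.19, and the actin crosslinker Actn1 3.4 and 3.04. The kinase genes Sgk1 and Fam20c had ratios of 3.13 and 3.09 and of 4.0 and 3.17. Bhlhe41, a transcriptional repressor, was the one member of a list of 21 myeloid transcription factors that was higher on both days, with 94.3 and 95.1 CPM in members and 5.9 and 7.5 CPM in other barcodes.

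**Figure D2:**
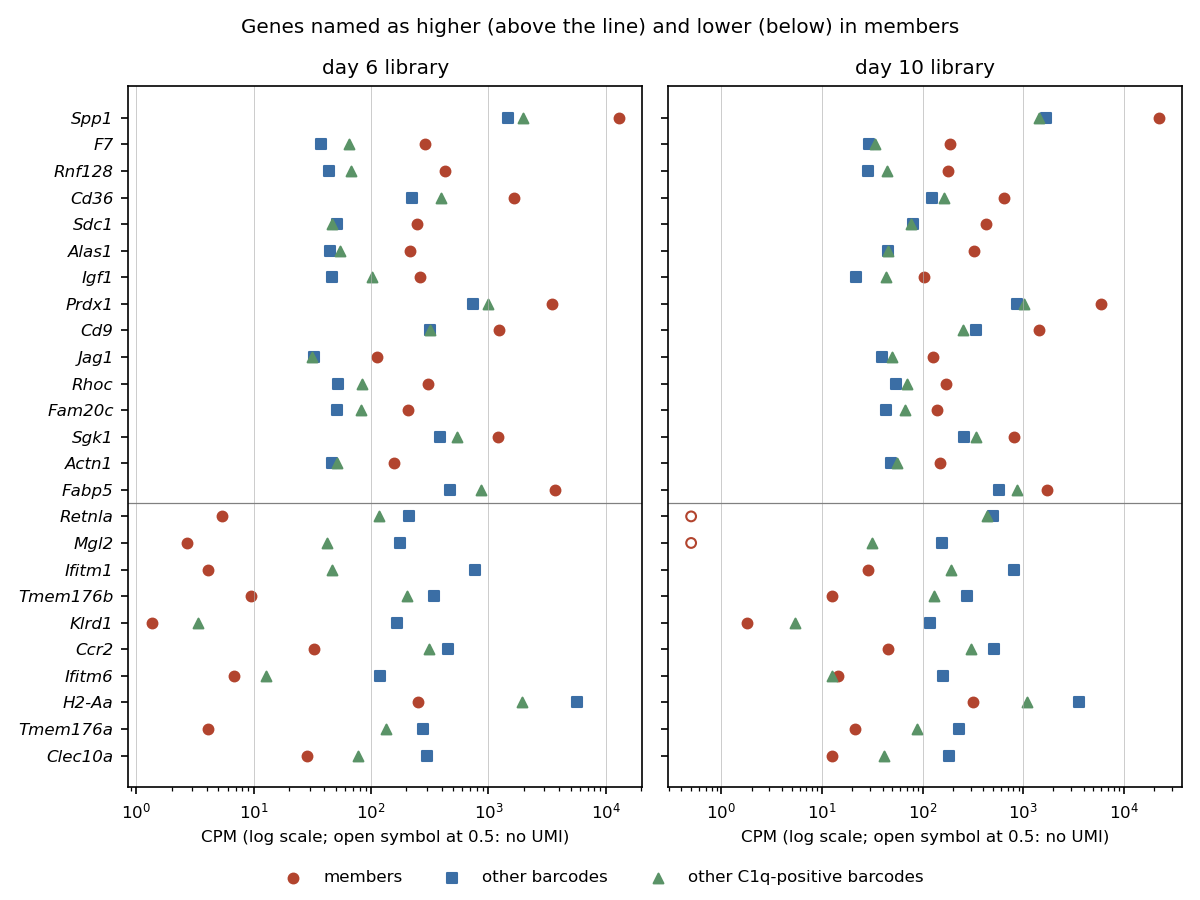
CPM on a logarithmic axis of the genes named by the size of their ratio, in members (red circles), other barcodes (blue squares) and other C1q-positive barcodes (green triangles) of the day 6 and day 10 libraries. Genes above the line were higher in members, led by Spp1, and genes below it lower, with Retnla and Mgl2 without a UMI in day 10 members.

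Beside the score genes, other genes of the lipid-associated macrophage programme were high in members. Of 20 listed genes 19 were compared, 9 were at least 2-fold higher on both days (Spp1, Fabp5, Cd9, Lgals3, Cd36, Plin2, Cd63, Ctsl and Vat1) and none was lower. Their median log2 ratio was 1.77 on day 6 and 0.96 on day 10. Lgals3, which encodes galectin 3, had 7095 and 7235 CPM in members and 2480.4 and 2898 CPM in other barcodes. Trem2, the lipid-sensing receptor after which such cells are often named, had 761 and 542 CPM in members and 289 and 288 CPM in other barcodes, ratios of 2.63 and 1.88 that do not reach 2-fold on both days. Apoe, the apolipoprotein of lipid export, had 5534 and 5251 CPM in members and 6607 and 8878 CPM in other barcodes, and 1 barcode gave 38.0% of the day 6 member UMIs. Cholesterol synthesis could not be described, since none of its 18 genes was abundant enough to compare.

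The lysosomal programme was moderately higher, and more so on day 6. Of 28 compared hydrolase and membrane genes 5 were at least 2-fold higher on both days (Ctsd, Ctsl, Psap, Cd63 and Acp5) and none was lower, with list medians of 0.66 and 0.22. Ctsl, cathepsin L, had 9021 and 4953 CPM in members and 1558 and 2011 CPM in other barcodes. Acp5 had 434 and 226 CPM in members and 93.2 and 78.8 CPM elsewhere, and 1 barcode gave 42.9% of its day 6 UMIs. Of 14 compared V-ATPase subunits other than Atp6v0d2, Atp6v1b2 and Atp6v1c1 were higher on both days, none was lower, and the list medians were 0.77 and 0.49. None of the 8 compared genes of the MiT family and lysosome regulation was 2-fold away on both days. Mitf itself, a transcription factor of lysosomal genes, had 101 and 73.6 CPM in members and 39.2 and 41.9 CPM in other barcodes. Of 19 osteoclast genes only 4 could be compared and Acp5 alone was higher. Under at least one alternative setting the nearer ratio to 1 was under 2-fold for Ctsd (1.67), Acp5 (1.77), Cd63 (1.91), Atp6v1c1 (1.82) and Atp6v1b2 (1.84).

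Among metalloproteinases and matrix genes other than Mmp12 and Mmp13, 3 of 13 compared were higher on both days (Mmp8, Mmp19 and Spp1) and none was lower. Mmp8, known as neutrophil collagenase, had 218 and 71.8 CPM in members and 40.1 and 24.4 CPM elsewhere, and 1 barcode gave 37.5% of its day 10 UMIs. Timp1, an inhibitor of these proteases, had 45.8 and 17.9 CPM in members and 88.1 and 106 CPM in other barcodes, with 41.2% of its day 6 member UMIs from 1 barcode. Of 13 antioxidant genes 3 were higher (Srxn1, Prdx1 and Blvrb), and of 8 iron and heme genes 2 (Blvrb and Ncoa4). Fth1, the ferritin heavy chain, had 27784 and 56363 CPM in members and 14372 and 20854 CPM in other barcodes. Hypoxia response genes were higher in 4 of 15 (Bnip3l, Ankrd37, Slc2a1 and Pdk1) and glycolysis genes in 3 of 14 (Slc2a1, Hk3 and Pgk1), with none lower in either list. Under at least one alternative setting the nearer ratio to 1 was under 2-fold for Mmp19 (1.27), Blvrb (1.55), Srxn1 (1.56), Ncoa4 (1.71), Pdk1 (1.74), Pgk1 (1.79), Slc2a1 (1.80) and Bnip3l (1.94). None of 18 compared oxidative phosphorylation genes was 2-fold away, with list medians of -0.07 and -0.05.

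**Figure D3:**
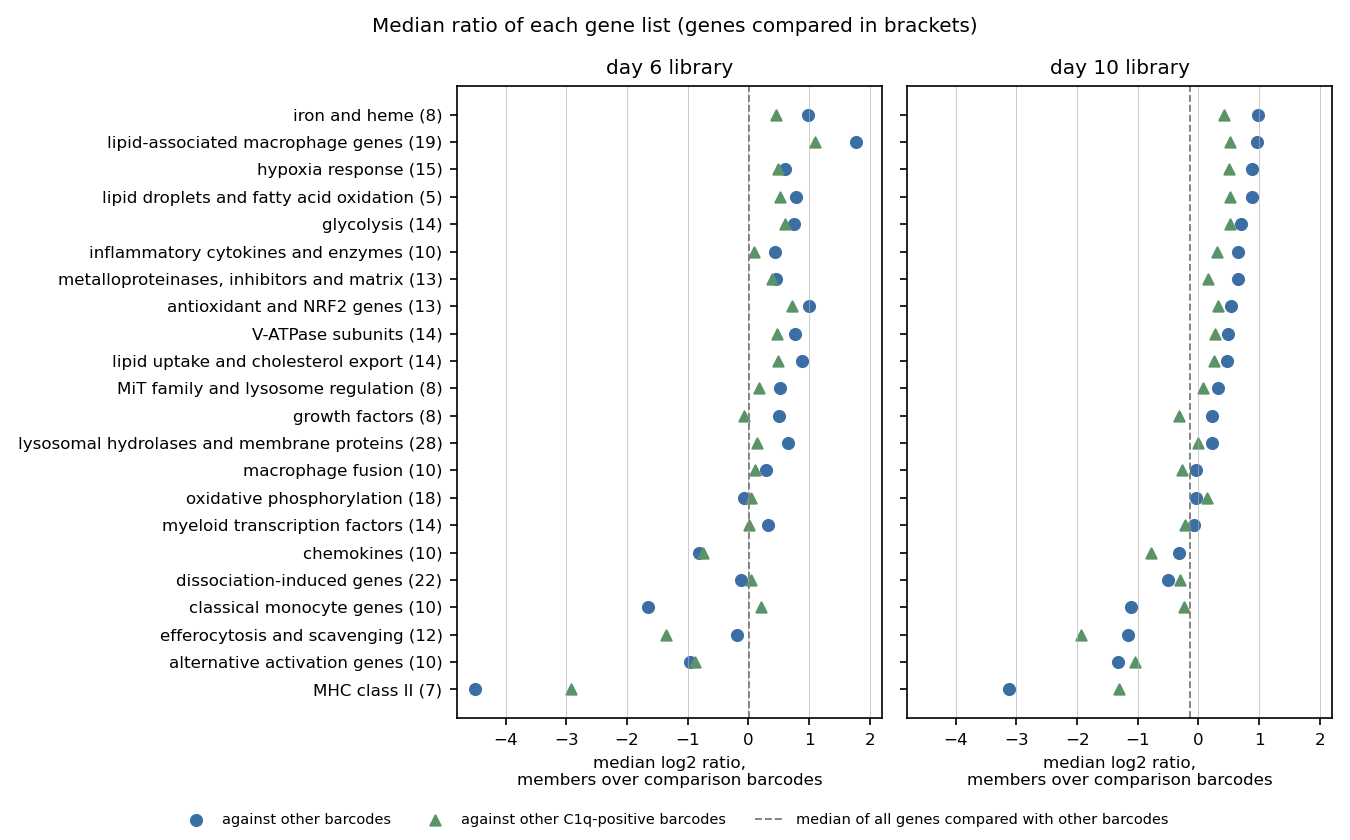
Median log2 ratio of each gene list (horizontal axis) for members over other barcodes (circles) and over other C1q-positive barcodes (triangles), in the day 6 and day 10 libraries, with the number of genes compared with other barcodes in brackets and the median of all compared genes as a dashed line. Lipid-associated, iron, hypoxia and glycolysis lists lie to the right on both days, and MHC class II far to the left.

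Transcripts of antigen presentation and of some monocyte genes were low in members. All 7 compared MHC class II genes were at least 2-fold lower on both days, with list medians of -4.51 and -3.13. H2-Aa, an MHC class II chain, had 214, 249 and 319 CPM in members on day 3, day 6 and day 10, against 2827, 5689 and 3575 CPM in other barcodes. Of the few H2-Aa UMIs in members, 1 barcode held 34.6% on day 6 and 50.6% on day 10, and 38.5% and 28.6% of the members had any. Ciita, the MHC class II transactivator, had 2 and 6 UMIs in members of day 6 and day 10, 2.7 and 10.8 CPM against 130.0 and 94.0 CPM in other barcodes.

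Of 10 compared classical monocyte genes 5 were lower and none higher. Summed over all 13 listed genes, however, members had 5577 and 5407 CPM on day 6 and day 10, against 5351 and 6126 CPM in other barcodes. Ccr2, the receptor by which monocytes enter tissue, had 32.3 and 44.9 CPM in members and 449 and 512 CPM in other barcodes, with 29.2% and 36.0% of the member UMIs from single barcodes. Plac8 had 5.4 and 37.7 CPM against 402 and 379.9 CPM, and Ly6c2 0 and 10.8 CPM against 66.4 and 74.9 CPM, although the ratio of Ly6c2 was 0.505 under one alternative. The type 2 secreted protein gene Retnla had 4 UMIs in day 6 members and none in day 10 members, 5.4 and 0 CPM against 212 and 500 CPM in other barcodes. With day 10 members set to the floor of 3 UMIs its ratio there was at most 0.0108. The lectin gene Mgl2 had 2 UMIs in day 6 members and none in day 10 members, against 178 and 157 CPM in other barcodes. Clec10a, another lectin gene, had 28.3 and 12.6 CPM in members and 299 and 184 CPM in other barcodes, and single barcodes gave 52.4% and 57.1% of the member UMIs. Tmem176b had 7 UMIs in members of each day, 9.4 and 12.6 CPM against 343 and 279 CPM.

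The other barcodes include cells with dendritic cell markers, and the part of these in the differences was not tested. Summed over 10 dendritic cell markers, members had 0, 0 and 5.38 CPM on the 3 days and other barcodes 471, 502 and 417 CPM. Other barcodes with at least 3 of these markers and under 5 UMIs of the C1q genes per 10000 numbered 101, 98 and 118. No member had at least 3 of the markers. Klrd1, which had 1 UMI in members of each later day and 168 and 119 CPM in other barcodes, had 3.4 and 5.5 CPM in the C1q-positive comparison barcodes introduced next. Members were therefore also compared with the other barcodes that had at least 10 UMIs of C1qa, C1qb and C1qc together per 10000. C1q is made by mature tissue macrophages, and 992 other barcodes met this limit. The class is a range of a score and not a cell type, and 191 other barcodes lay between 5 and 20 UMIs per 10000. Of the members only 33 of 52 on day 6 and 16 of 49 on day 10 met the limit. Genes that move with C1q are therefore not independent of this choice, and its part in the differences was not tested.

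Against these C1q-positive barcodes 67 of 2733 compared genes (2.45%) were at least 2-fold higher in members on both days and 101 (3.7%) were lower. With median-of-ratios scaling in place of CPM the split was 84 higher and 84 lower. The medians of all compared genes were -0.03 and -0.14. Spp1 was 6.56-fold higher on day 6 and 15.5-fold on day 10, against 1978 and 1434 CPM in C1q-positive barcodes. F7 was 4.51-fold and 5.51-fold higher, Sdc1 5.32-fold and 5.53-fold, and Cd36 4.20-fold and 3.91-fold. Itgax, the integrin chain CD11c, had 201 and 172 CPM in members and 51.2 and 10.9 CPM in C1q-positive barcodes, with 28.1% of the day 10 UMIs from 1 barcode. Il7r, the interleukin 7 receptor, had 326 and 371 CPM in members and 113 and 58.6 CPM in C1q-positive barcodes. S100a8, the only neutrophil marker abundant enough to compare, was at least 2-fold higher on both days, with log2 ratios of 1.20 and 1.47.

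The lysosomal lists lay closer to the C1q-positive barcodes than to all other barcodes. Of 28 hydrolase and membrane genes 1 was higher (Acp5) and 1 lower, with list medians of 0.14 and -0.01, and none of 14 V-ATPase subunits was 2-fold away. Of the 20 lipid-associated genes 6 were higher (Spp1, Fabp4, Cd9, Lgals3, Cd36 and Anxa1) and Apoe was lower, with 13824 and 16958 CPM in C1q-positive barcodes. Within members Apoe was 3.02-fold and 2.93-fold higher in those that met the C1q limit, so it is not independent of that choice. MHC class II genes were lower in 5 of 6, with list medians of -2.92 and -1.31. Of 6 compared classical monocyte genes Ccr2 was lower and none was higher, with list medians of 0.20 and -0.24.

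Of 15 compared efferocytosis and scavenging genes 8 were at least 2-fold lower on both days, namely C1qa, C1qb and C1qc, which chose the comparison barcodes, and Mrc1, Cd163, Stab1, Gas6 and Elmo1. How far the lower levels of Mrc1, Cd163, Stab1, Gas6 and Elmo1 follow from that choice was not tested. Higher were Cd36, Anxa1 and Mfge8, a bridging protein between dying cells and integrins of which single barcodes gave 39.7% and 50% of the member UMIs. The mannose receptor gene Mrc1 had 190 and 106 CPM in members and 721 and 534 CPM in C1q-positive barcodes, and Stab1 64.6 and 66.4 CPM against 474 and 286 CPM. Mertk, a receptor for dying cells, had 105 and 26.9 CPM in members and 118 and 66.4 CPM in C1q-positive barcodes. The chemokine gene Ccl8 had 22 UMIs in day 6 members, 95.5% of them in 1 barcode, and none in day 10 members, against 429.5 and 250.2 CPM in C1q-positive barcodes. Fcgrt, the neonatal Fc receptor, had 21.5 and 12.6 CPM against 184.5 and 108.5 CPM.

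C1q itself split the members. At the same limit 3 of 7 members on day 3 were C1q-positive, 33 of 52 on day 6 (63.5%, interval 49 to 76.4%) and 16 of 49 on day 10 (32.7%, 19.9 to 47.5%), against 17.4%, 45.9% and 49.96% of other barcodes. The limit has no gap either, since 27 members lay between 5 and 20 UMIs per 10000. When C1q-positive members were set beside the other members, a split chosen after the data had been seen, 16 of 2463 compared genes were at least 2-fold higher on both days and 26 lower. The 16 genes included the 3 C1q genes themselves, Apoe and Ms4a7. Apoe had 7351 and 9042 CPM in C1q-positive members and 2435 and 3083 CPM in the others. Among the 26 were Mmp13 and Ctsk of the score, the chemokine gene Cxcl3, the activin subunit Inhba and the growth factor gene Hbegf. Ctsk had 442 and 395 CPM in C1q-positive members and 1002 and 1317 CPM in the others, and Mmp13 250 and 93.7 CPM against 616 and 426 CPM.

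To see whether the members share more than the score, all 2702 barcodes were clustered without the 6 genes. One of 14 clusters, number 12 with 110 barcodes, held 63 of the 108 members (58.3%), and 57.3% of that cluster were members. On average 41.0% of the 15 nearest neighbours of a member were members, against 1.48% for other barcodes, and 8 members had none among them. The remaining members lay mainly in clusters 2 (19 members), 10 (14) and 9 (7). These clusters still read the many genes that move with the score, so the concentration is a description.

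The members of the 4 clusters differed in which genes they carried. In cluster 12 they had 10453 CPM of Mmp12, 4556 CPM of Lpl and 3203 CPM of Fabp5, with 17800 CPM of Spp1. Members in cluster 2, which is led by Gdf15, Il10 and Pmp22, had the highest C1qa (1958 CPM), Apoe (16207 CPM) and Gpnmb (1866 CPM) of these 4, with 3068 CPM of Lpl and 296 CPM of Ctsk. They had no Il10 UMI, against 121 CPM in the other barcodes of cluster 2. Of those, 40 of 261 (15.3%) had an Il10 UMI, and whether its absence from 19 members differs from this was not tested. Members in cluster 10, led by Ptges, Inhba and Il1a, had 21686 CPM of Spp1, 1230.4 CPM of Ctsk, 747 CPM of Inhba and 593 CPM of Lpl. The 7 members in cluster 9, led by Mt2, Nos2 and Saa3, had 3990.4 CPM of Mmp12, 228 CPM of Spp1 and no Lpl UMI. The other 47 barcodes of cluster 12 had 1988 CPM of Mmp12 and 499 CPM of Lpl, and among them Igfbp7, Tagln and Aqp1 reached 516, 416 and 508 CPM, while members of cluster 12 had 3.1, 0 and 3.1 CPM.

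**Figure D4:**
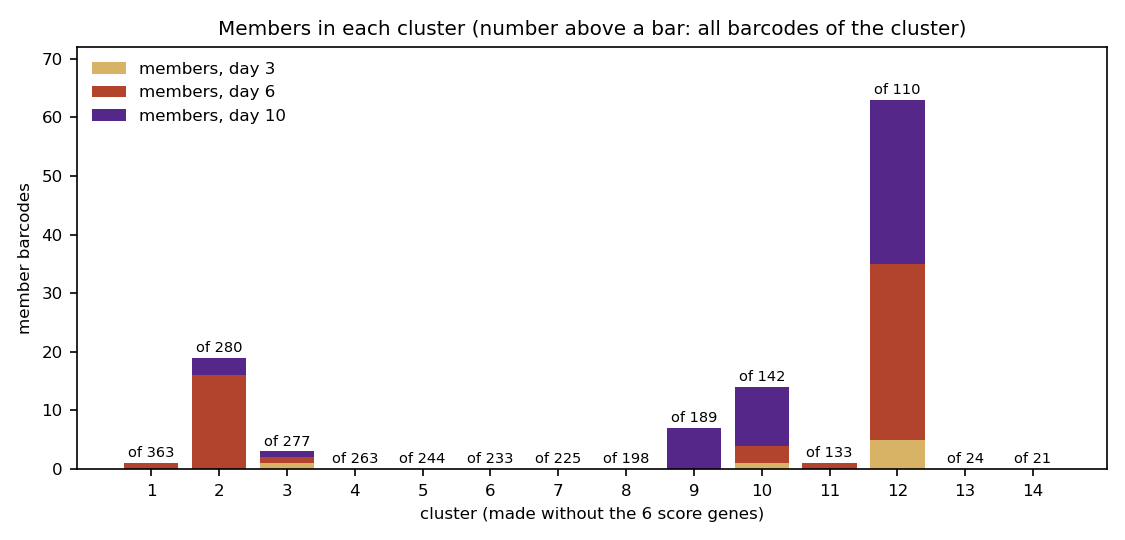
Number of members (vertical axis) from the day 3, day 6 and day 10 libraries in each of 14 clusters made without the 6 score genes, with all barcodes of a cluster written above its bar. Cluster 12 holds 63 of the 108 members, cluster 2 mostly day 6 members and clusters 9 and 10 mostly day 10 members.

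The cluster a member lay in moved with the day. Of the 52 day 6 members 30 were in cluster 12, 16 in cluster 2, 3 in cluster 10 and none in cluster 9, and of the 49 day 10 members 28, 3, 10 and 7. The day comparison that follows compares sums over these unequal mixtures, and their part in its differences was not tested.

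Day 10 members had more transcripts of inflammation and low oxygen and fewer of lipid uptake than day 6 members. Of 2932 genes compared, 111 (3.79%) were at least 2-fold higher on day 10 and 292 (9.96%) at least 2-fold lower. In other barcodes, whose sums hold many more UMIs, 21 (0.712%) and 60 (2.03%) of 2951 genes were. The median log2 ratio of all compared genes was -0.19 in members and -0.03 in other barcodes, and with median-of-ratios scaling the split in members was 184 higher and 177 lower. Whether the ratios of members and other barcodes differ was not tested, since each day is 1 library.

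Il1a, an alarm cytokine of injured cells, had 174 CPM in day 10 members and 37.7 CPM in day 6 members, a ratio of 4.62 (interval 3.00 to 7.30), against a ratio of 0.82 in other barcodes. Single barcodes gave 33.0% and 35.7% of these UMIs, and within cluster 12 alone, an alternative chosen after seeing the data, the ratio was 1.76. Il1b had 1012 and 241 CPM, a ratio of 4.20, against 1.11 in other barcodes. On both days Il1b was nevertheless at least 2-fold lower in members than in other barcodes. The nearer of these 2 ratios to 1 was 0.478, and 1.12 with the top 8% as members. Nos2, the inducible nitric oxide synthase, had 142 and 13.5 CPM, a ratio of 10.5, against 6.71 in other barcodes, and 70.0% of its 10 day 6 UMIs came from 1 barcode. Of 13 compared inflammatory cytokine and enzyme genes 6 were higher on day 10 (Il1a, Il1b, Nos2, Ptges, Acod1 and Saa3) and none was lower, with a list median of 0.72 in members and -0.26 in other barcodes. Single barcodes held 95% of the day 6 and 46.4% of the day 10 Saa3 UMIs.

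Of 16 hypoxia response genes 5 were at least 2-fold higher in members of day 10 (Egln3, Egln1, Bnip3, Slc2a1 and Ero1l) and none was lower. The list median was 0.86 in members and 0.78 in other barcodes. Egln3, an oxygen-sensing prolyl hydroxylase, had 210 and 45.8 CPM in members, a ratio of 4.58, against 5.72 in other barcodes. Ero1l, an oxidase of protein folding, had 567 and 97.0 CPM in members, a ratio of 5.85, against 2.53. Hp, haptoglobin, had 524 and 74.1 CPM, a ratio of 7.07, against 1.90, with 38.4% of its day 10 UMIs from 1 barcode. The ratio of Hp was 1.78 with Mmp12 and Mmp13 left out of the score, which is under 2-fold, and 27.7 with members chosen within each library. The T cell costimulatory receptor gene Tnfrsf9 had 418 and 67.3 CPM, a ratio of 6.21, against 3.68, with 46.0% of its day 6 UMIs from 1 barcode.

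Lipid uptake and lysosomal genes were lower in day 10 members. Of 20 lipid-associated genes 5 were at least 2-fold lower (Fabp5, Fabp4, Cd36, Lipa and Anxa1) and none higher, with a list median of -0.63 in members and 0.05 in other barcodes. Fabp5 had 1710.1 CPM on day 10 and 3703 CPM on day 6, a ratio of 0.462, against 1.24 in other barcodes. Lipa, the lysosomal acid lipase, had 147 and 431 CPM, a ratio of 0.341. Of 30 lysosomal genes 7 were lower and 1, Ctsc, was higher. Lpl, which the score used, had a ratio of 0.253 in members and 0.338 in other barcodes, and Gpnmb 0.293 and 0.389.

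Other genes lower in day 10 members were Cd83, a maturation marker of antigen-presenting cells, with 17.9 and 209 CPM (ratio 0.0860), and the secreted ribonuclease gene Rnase4, with 12.6 and 123 CPM (0.102). Single barcodes gave 38.1% of the day 6 and 30% of the day 10 Cd83 UMIs. Fgd4, a Cdc42 exchange factor, had 17.9 and 126.6 CPM, and Lair1, an inhibitory collagen receptor, 21.5 and 103.7 CPM. All 5 compared type I interferon response genes were lower on day 10, with a median of -2.59 in members and -1.33 in other barcodes. Isg15, one of them, had 19.7 and 118.5 CPM, but 1 barcode gave 50% of its day 6 UMIs and the ratio was 1.03 with members chosen within each library. Of 22 genes that tissue dissociation is known to induce, 7 were lower on day 10, with a median of -0.70 in members and -0.06 in other barcodes. The heat shock gene Hspa1b had 174 and 923 CPM in members and 451 and 2233 CPM in other barcodes, and 1 member barcode gave 66.0% of its day 10 UMIs.

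**Figure D5:**
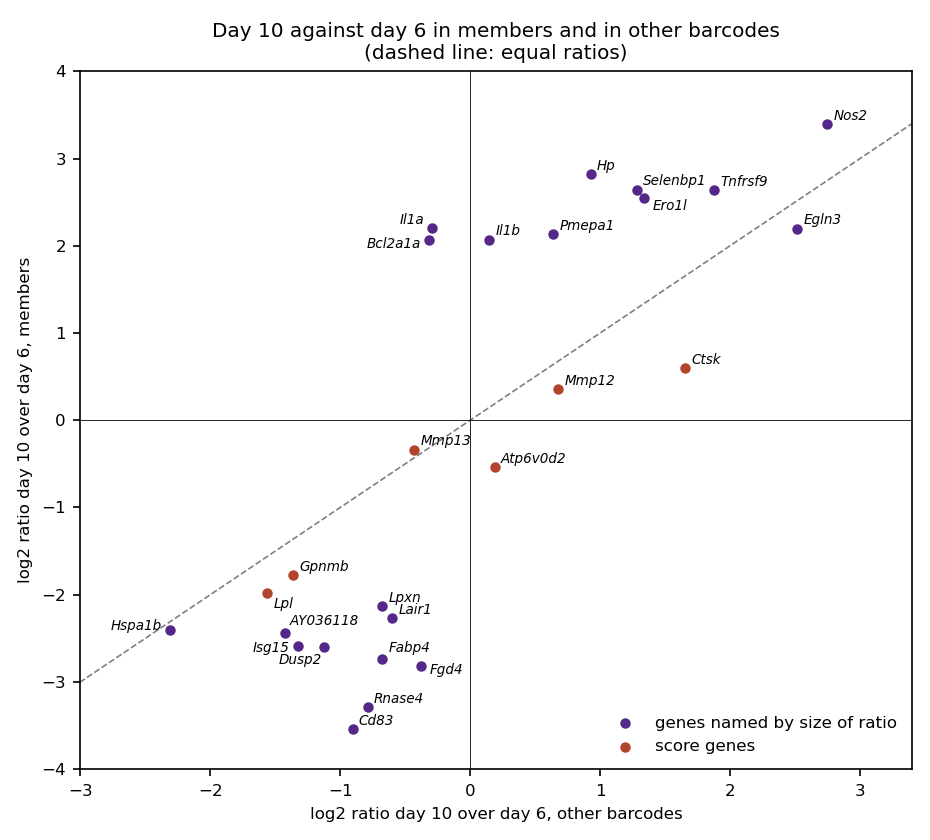
Log2 ratio of day 10 over day 6 in members (vertical axis) and in other barcodes (horizontal axis) for the genes named by the size of their ratio in members and the 6 score genes, with a dashed line where both are equal. Nos2 and Egln3 were higher on day 10 in both groups, Il1a and Il1b had ratios of 4.62 and 4.20 in members and of 0.82 and 1.11 in other barcodes, and Lpl and Gpnmb lower in both.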

How the data were processed

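Droplet single-cell RNA-seq was made from wound monocytes and macrophages of day 3, day 6 and day 10, 1 library a day. The deposited matrices hold UMI counts per gene and barcode for 31053 genes, made by the authors with Cell Ranger 3.0.2 on mm10, per the submitters' processing notes. The members and gene lists were chosen with earlier results of these data known. Counts were summed per group and library and scaled to CPM. A gene was compared where it had at least 20 UMIs over both groups and 50 CPM in one, and called where at least 2-fold apart. For the ratio, any sum under 3 UMIs was set to a floor of 3 UMIs. Named were the score genes, the genes with the largest and smallest ratios, and up to 4 genes a list. Genes ranked as higher in members had at least 100 CPM and a UMI in at least 25% of members on day 6 and day 10. Genes ranked as lower had at least 100 CPM in the comparison barcodes, with no limit on members. Between days the limits were 100 CPM in either library and a UMI in 25% of members of the higher one. Genes named outside these rules were chosen after their values were seen. Clusters used scanpy 1.11.5 with 2000 variable genes, 30 components, 15 neighbours and a resolution of 0.8. Scrublet called 9 of 2702 barcodes doublets, 2 of them members, and none was removed. The summing and calling were tested on simulated data, drawn as Poisson counts from summed profiles without differences between barcodes. The simulation therefore cannot check calls that rest on single barcodes. Ratio intervals are exact and cover counting error only. The study's gates and the annotation release are not given in the sources used here.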

Additional observations from a re-analysis of the deposited data

Results flagged for a closer look

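Il1a stood on opposite sides of the other barcodes on the 2 later days. Its level in members was 2.71 times that of other barcodes on day 10 and 0.480 times on day 6, and the difference between the days was not tested, since each day is 1 library. Single barcodes gave 33.0% of the day 10 and 35.7% of the day 6 member UMIs.

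Barcodes left out for their mitochondrial share also reached the score limit. On day 6 these were 28 of 437 (6.41%, exact interval 4.30 to 9.13%) and on day 10 5 of 411 (1.22%, 0.396 to 2.82%). On day 3 2 of 379 reached it (0.528%). The limit that a count of 0 allows was 0.792% on day 3, 0.686% on day 6 and 0.730% on day 10. A few barcodes exceed such a limit, so nothing more is read from it. Among kept barcodes members were 0.796%, 9.44% and 3.85% on day 3, day 6 and day 10. Whether the filter left out such barcodes unevenly was not tested.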

How the results depend on the processing

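No paired analysis was possible because each day is 1 library and no test was made. Over the alternatives, 92 values of the main shares and counts stayed within 1.5 times the count or within the counting interval, 23 moved and 1 turned round; for named genes 1749 stayed, 420 moved and 5 turned round. With 4% chosen within each library the share ratios were by construction 1.0 for day 10 over day 6, 1.01 for day 10 over day 3 and 1.0 for day 6 over day 3, and 207 genes were higher in day 10 than day 6 members; the day 10 over day 6 ratio of Isg15 was then 1.03. Without Mmp12 and Mmp13 the day 10 over day 6 share ratio was 0.245. Members over other barcodes, the scavenger receptor gene Olr1 was 0.478 with the top 2% and 0.372 within each library, in place of 2.47, Il1b 1.12 with the top 8%, in place of 0.478, and Cxcl10 1.12 with under 20% mitochondrial UMIs, in place of 0.412. With the top 8%, 60 genes were lower than in C1q-positive barcodes. Median-of-ratios scaling gave 184 higher and 177 lower genes on day 10, and at least 100 UMIs per gene 48 and 122. With no CPM minimum the counts were 220 and 441 against other barcodes, 118 and 311 against C1q-positive barcodes, and 183 and 673 between days. Using 1 library at a time, 165 to 242 genes were higher and 278 to 304 lower than in other barcodes, and 122 to 133 and 202 to 234 against C1q-positive barcodes. The cause was not tested. Depth limits day 3, with 7 members. Restricting to cluster 12 and leaving out the deepest members were chosen after seeing the data.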
